A study of Mus musculus with 26 samples.

Results

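Imprinted growth genes were followed through the conversion of mouse fibroblasts towards pluripotency. The 10 members, Peg3, Zim1, Plagl1, Cdkn1c, Igf2r, H19, Dlk1, Mest, Peg10 and Snrpn, were chosen by name from a table of 18198 genes in 26 RNA-seq libraries, 2 for each of 13 groups, and all 10 passed the filter on low values. The groups were mouse embryonic fibroblasts (MEF, passage 2, in serum medium), embryonic stem cells (ESC, passages 20 to 24, CBA/CaJ X C57BL/6J, in N2B27 with 2 inhibitors and LIF), induced pluripotent stem cells grown as the ESC were (iPSC, passages 5 to 8, grown from picked colonies), and MEF infected with retroviruses. The infected cells had received Pou5f1, Sox2 and Klf4 (OSK) and were taken at days 0, 1, 3, 5 and 7, or the same factors with cJun (OSK+cJun) at days 0, 1, 3 and 7, or OSK with a lentiviral hairpin against Sap30 (OSK+shSap30) at day 7. All reprogramming groups thus share the OSK factors. The medium was given as iCD1 or a serum and LIF medium without saying which library had which, no strain was given for groups other than ESC, and no group with a control hairpin was analysed here.

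An imprinted gene is transcribed mainly from the copy inherited from 1 parent, a choice marked by DNA methylation laid down in the germ line. Many such genes act on fetal growth. Those expressed from the paternal copy often promote growth and those expressed from the maternal copy often restrain it, and several fall silent or lose their marks in cultured pluripotent cells. Peg3, Plagl1, Dlk1, Mest, Peg10 and Snrpn are known as paternally expressed in mouse, and Zim1, Cdkn1c, Igf2r and H19 as maternally expressed. The values here are the sum over both copies, so they give no information on which copy was read.

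The deposited values are a score with nearly the same total and highest value in every library, so a value is a position within its library, depth is unknown, and levels are compared between groups for 1 gene and never between genes. Values joined by a slash are replicates 1 and 2 of a group. Folds are differences of the mean log2(score + 1), with 2 libraries per group, and a gene was called at an adjusted p below 0.05 from limma with a log2 fold of at least 1. A call is described as lost where it no longer passed both. Whether replicates came from separate cultures is not stated, and p-values then measure only the spread between these libraries, which may be technical. Sap30 stood at 20/41 with the hairpin against 301/378 in OSK day 7, and Jun at 8981/6124 in OSK+cJun day 7 against 1010/582 without it. All 7 fibroblast markers listed were detected in MEF, with Fap at 0 in ESC, and 7 pluripotency markers summed to 9 and 6 in MEF and to 11801 and 12696 in ESC. The collagen genes Col1a1 and Col1a2 reached 21544, the ceiling of these scores, in 5 and 17 of the 26 libraries, including both MEF libraries, so they cannot show their full range. Fibroblast markers are therefore given as the sum of the other 5 (Thy1, Pdgfrb, Twist1, Prrx1 and Fap), a choice made after the values were seen. That sum was 6234 and 9905 in MEF and 19 and 45 in ESC. In these bulk libraries fewer cells of a type and less RNA per cell cannot be told apart.

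Promoter sequence was looked up for the members, since germ-line methylation marks are kept by the protein ZFP57 at copies of TGCCGC. RefSeq promoters of GRCm38.p6, the build of the annotation used, were matched for 7 of the 10 members, in 12 windows that hold the 250 bases before a start site. TGCCGC, the only one of 3 motifs with a match, was read on both strands and found in windows of Zim1, Plagl1 and Mest and in 8.68 percent of all 32851 promoter windows. The YY1 motif GCCATNTT and the AP-1 motif TGANTCA, in 3.91 and 6.75 percent of all windows, were in none of the 12, which says only that these letters are absent there. Zim1 and Peg3 are shown because they are neighbours compared below with and without added cJun, and Mest because the window shown held 2 copies. Mest has another window, chr6:30733256-30733505, that held none. Capitals mark TGCCGC or its reverse complement, and each line runs 5′ to 3′ on the strand of its gene. The Zim1 window is chr7:6696433-6696682, minus strand, and the Mest window shown is chr6:30737800-30738049, plus strand. The Peg3 stretch, chr7:6730432-6730577, minus strand, is the 146 bases between the first exons of Peg3 and of Usp29, which is read in the opposite direction.
Zim1: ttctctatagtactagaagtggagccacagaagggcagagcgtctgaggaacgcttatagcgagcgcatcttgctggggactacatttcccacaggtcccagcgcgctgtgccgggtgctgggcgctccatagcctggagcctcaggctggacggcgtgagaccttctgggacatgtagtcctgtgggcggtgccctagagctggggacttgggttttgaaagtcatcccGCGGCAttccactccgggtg
Peg3: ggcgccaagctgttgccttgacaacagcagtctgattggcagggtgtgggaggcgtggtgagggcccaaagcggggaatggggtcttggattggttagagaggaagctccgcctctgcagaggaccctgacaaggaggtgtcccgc
Mest: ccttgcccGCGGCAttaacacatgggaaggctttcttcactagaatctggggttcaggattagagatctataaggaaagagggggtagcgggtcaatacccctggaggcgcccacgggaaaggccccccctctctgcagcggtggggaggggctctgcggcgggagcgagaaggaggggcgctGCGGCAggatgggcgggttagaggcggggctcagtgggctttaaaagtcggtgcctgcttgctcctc
The Zim1 and Mest windows shown hold 14 CG pairs each, against a median of 6 over all promoter windows of 250 bases. The Mest window without TGCCGC holds 7. The Peg3 stretch of 146 bases holds 5, and the whole Peg3 window of 250 bases holds 8.

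Against MEF, most members stood lower in pluripotent cells. In ESC 7 of the 10 were called lower and 1, Snrpn, higher, where 43.0 percent of all 16038 genes tested were called, 20.6 percent lower and 22.4 percent higher, and the median log2 fold of the members was -3.06 against 0.128 over all genes tested. In iPSC the same counts, 7 lower and 1 higher, were found beside 19.7 and 20.2 percent of all genes, 40.0 percent in either direction, with medians of -3.029 and 0.037. The comparisons share the MEF libraries and the part of the fibroblast markers given above was not tested, and Peg10 and Plagl1 were the members called in neither. Of 45 tested genes in a list of 56 other imprinted genes, 16 were lower and 11 higher in ESC, and 15 lower and 10 higher in iPSC. The heat map of differences from MEF shows these losses beside the gain of Snrpn.

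**Figure D1:**
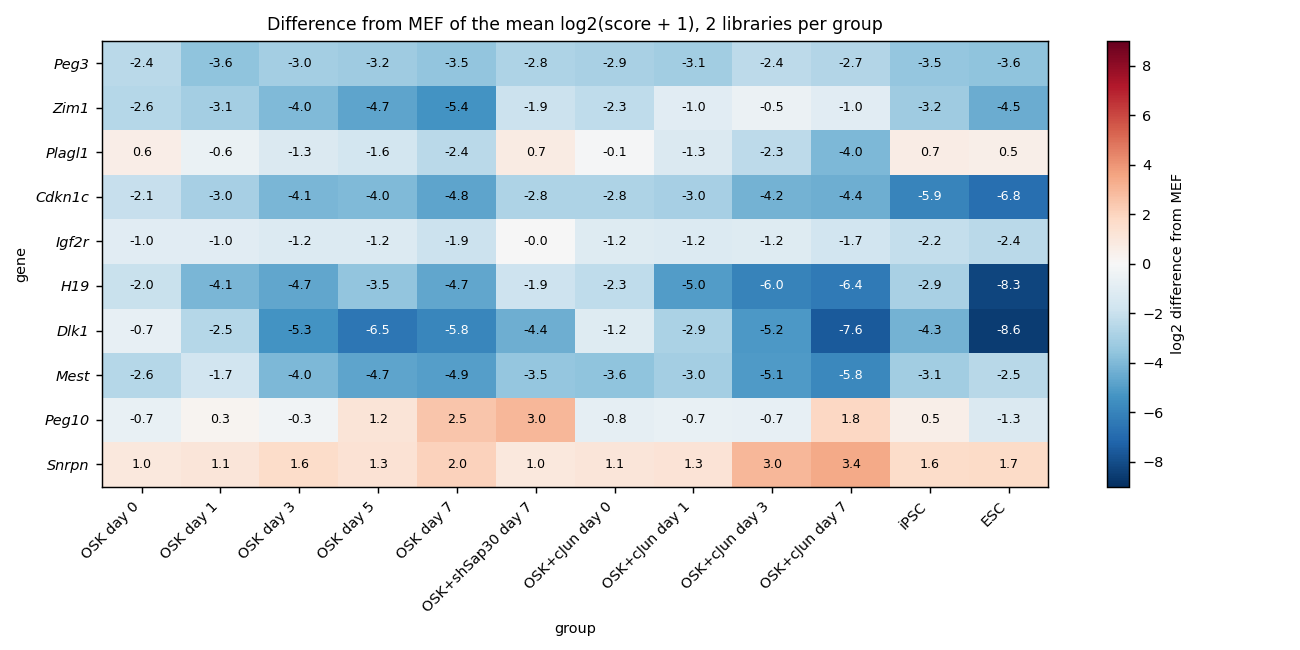
Each cell gives the mean log2(score + 1) of a group minus that of MEF for 1 gene (rows) in 1 group (columns), with 2 libraries per group and red for higher than MEF. Snrpn is above MEF in all 12 other groups, while Dlk1 reaches -8.6 and H19 -8.3 in ESC.

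For Peg3, Mest and Zim1 much of the distance from MEF was already present at day 0 of the OSK course. Dlk1 and H19 stood furthest below MEF in ESC, and their day 0 folds of -0.74 and -1.98 were not called. Peg3, Mest, Zim1 and Cdkn1c were called lower at day 0 than in MEF, 4 of 10 members where 2.06 percent of all genes were called lower, 4.92 percent higher and 6.98 percent in all. The calls of Zim1 and Cdkn1c were lost in some fits with a library left out, as given for each below. The medians were -1.484 for the members and -0.01 for all genes tested. The 5 fibroblast markers summed to 76.7 and 48.2 percent of their MEF mean in these day 0 libraries, and to 77.3 and 123 percent in the MEF libraries themselves, while mean Peg3 at day 0 stood at 18.6 percent of MEF, Mest at 16.2, Zim1 at 15.7 and Cdkn1c at 23.4. Further calls came over the following week, with 1 member called between days 0 and 1 (6.30 percent of all genes, 3.12 lower and 3.18 higher), 4 between days 0 and 3 (17.2 percent, 8.69 lower and 8.55 higher) and 8 between days 0 and 7 (23.8 percent, 12.6 lower and 11.3 higher). By day 7, 6 were lower and 2, Peg10 and Snrpn, higher, with a median of -2.508 against 0.06 over all genes. These 3 comparisons share the day 0 libraries. The sum of the 5 fibroblast markers went from 6187 and 3887 at day 0 to 888 and 469 at day 7, and its part in these folds was not tested. Among the other imprinted genes 8 were lower and 2 higher at day 7.

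**Figure D2:**
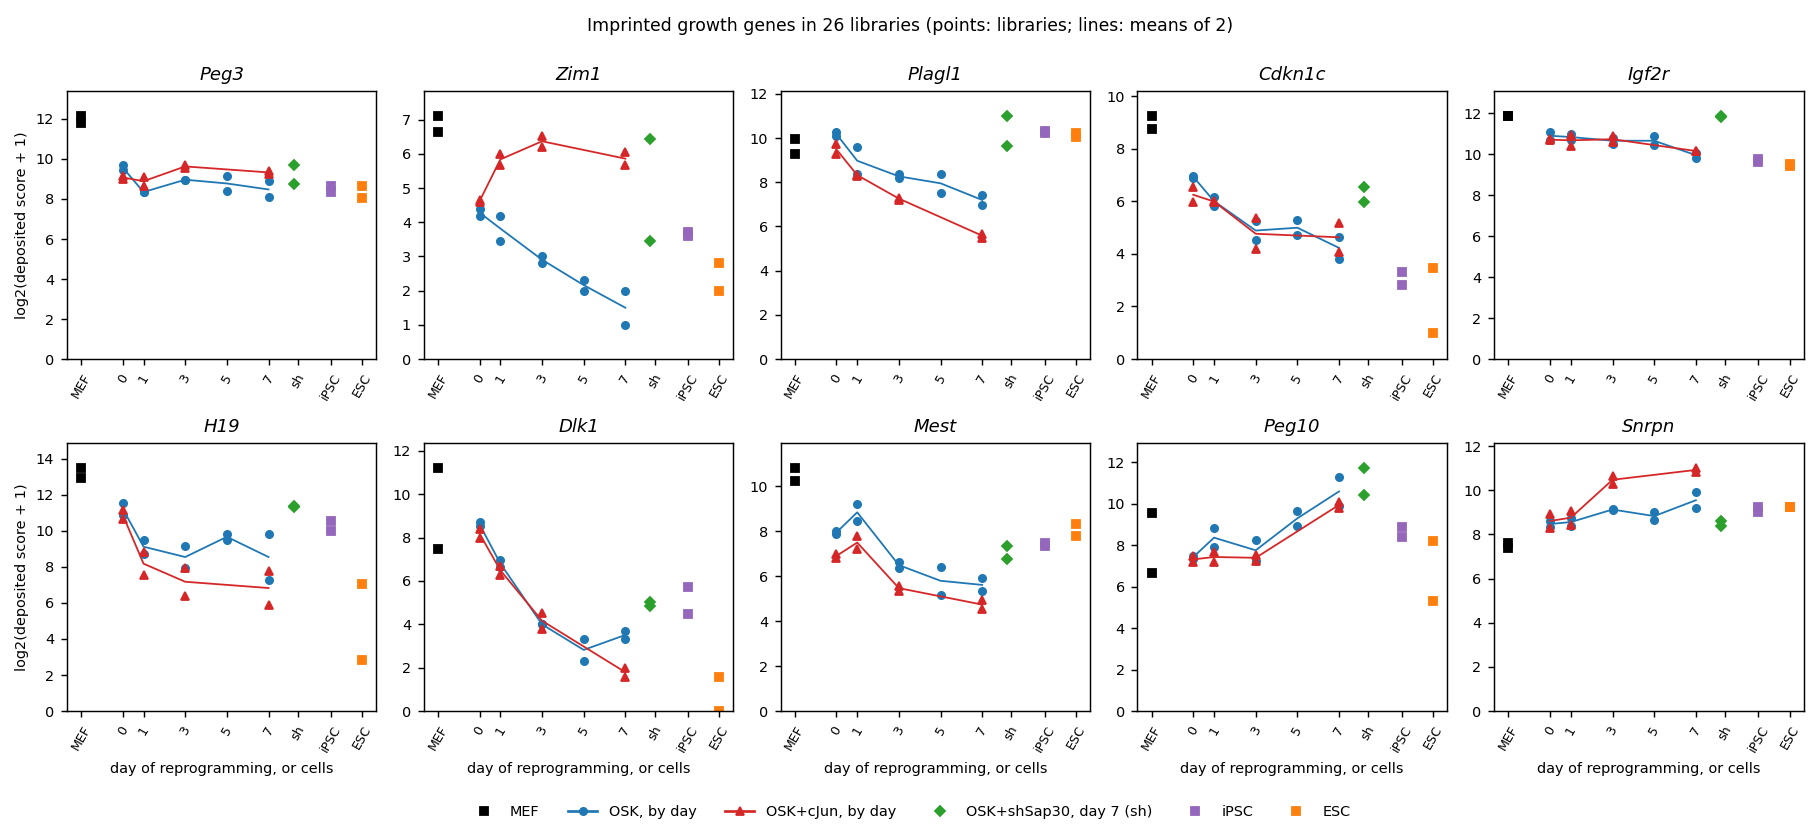
Each point is the log2(score + 1) of 1 library, by day for the OSK (blue) and OSK+cJun (red) courses and beside them for MEF, the Sap30 hairpin (sh), iPSC and ESC; lines join the means of 2 libraries. Zim1 is the member in which the red and blue courses separate most, and Plagl1 stands near its starting level in iPSC and ESC after falling in both courses.

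Among the zinc-finger genes, Peg3 encodes a DNA-binding protein with effects on growth and maternal behaviour. Its score was 3611/4616 in MEF, 694/832 at OSK day 0, then 325/325, 497/500, 573/334 and 469/269 on days 1, 3, 5 and 7. With cJun it was 573/507, 407/551, 823/759 and 673/612 at days 0, 1, 3 and 7, and it was 824/427 with the hairpin, 402/326 in iPSC and 264/400 in ESC. MEF therefore stood apart from every other group, whose libraries lay between 264 and 832. Peg3 was lower than in MEF with a fold of -2.42 (SE 0.32, adjusted p = 7.87e-05) at day 0 and had a fold of -3.65 (SE 0.32, adjusted p = 3.39e-08) in ESC. It fell by 1.22 (SE 0.32, adjusted p = 0.022) from day 0 to day 1, which was lost when any 1 of the 4 libraries was left out (-1.35 to -1.09). From day 0 to day 7 it fell by 1.09 (SE 0.32, adjusted p = 0.0127), which was lost on leaving out OSK day 0 replicate 2 (-0.96) or day 7 replicate 2 (-0.69). In the cJun course the fold was 0.25 (SE 0.32, adjusted p = 0.652), and the difference between the courses was not called at 1.35 (SE 0.45, adjusted p = 0.1). That difference would be called without OSK day 7 replicate 1 (1.75). Usp29, which shares the promoter stretch shown above, was at 2/3 in MEF and 55/40 in ESC, higher in ESC by 3.79 (SE 0.72, adjusted p = 0.000244) and so opposite to Peg3.

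Zim1, another zinc-finger gene, lies beside Peg3 and is read from the maternal copy. Its scores were low throughout, at 138/98 in MEF, 20/17 at OSK day 0, then 17/10, 6/7, 4/3 and 3/1 on days 1, 3, 5 and 7. With cJun it was 23/24 at day 0, 50/63 at day 1, 73/91 at day 3 and 65/50 at day 7. The libraries with and without cJun did not overlap on any of the 4 matched days. Zim1 was higher with cJun by 3.46 (SE 0.64, adjusted p = 0.00186) at day 3 and by 4.36 (SE 0.64, adjusted p = 0.000201) at day 7, and the difference at day 1 of 2.02 (SE 0.64, adjusted p = 0.128) was not called. In the OSK course it fell by 2.78 (SE 0.64, adjusted p = 0.00289) from day 0 to day 7, and in the cJun course its fold was 1.24 (SE 0.64, adjusted p = 0.19). The change over the course differed between OSK+cJun and OSK by 4.03 (SE 0.91, adjusted p = 0.0189), the 1 member called for this difference, where 3.82 percent of all genes were, 2.46 higher and 1.36 lower. That call was lost without OSK day 0 replicate 1 (3.91), OSK day 7 replicate 2 (3.53), OSK+cJun day 0 replicate 2 (4.05), OSK+cJun day 7 replicate 1 (3.84) or, at a value between these, OSK+cJun day 0 replicate 1. At scores as low as those of OSK day 7 the size rests on the constant added before the log: with 10 in place of 1 the fold was 2.49 at day 7, -1.25 in the OSK course and 2.25 for the difference between courses, each still called. Against MEF, Zim1 was lower with a fold of -2.59 (SE 0.64, adjusted p = 0.0153) at OSK day 0, which was lost on leaving out MEF replicate 1 (-2.35) or either day 0 library (-2.70 and -2.48).

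Zim1 was also low in stem cells, at 11/12 in iPSC and 3/6 in ESC. It was below MEF with a fold of -3.23 (SE 0.64, adjusted p = 0.000441) and -4.47 (SE 0.64, adjusted p = 1.39e-05). The hairpin libraries stood at 10/85, so they differed from each other 8.5 times, and both were above the 3/1 of OSK day 7. The fold of 3.44 (SE 0.64, adjusted p = 0.00216) was called, ranged from 1.96 without the second hairpin library to 4.93 without the first, and was not called when the fit held the compared libraries alone (adjusted p = 0.131). Between day 7 and iPSC it rose by 2.14 (SE 0.64, adjusted p = 0.0128), which was lost on leaving out either iPSC library (2.20 and 2.08) or day 7 replicate 2 (1.64), at scores of at most 12. With 10 added before the log the hairpin fold was 1.87, still called, and the fold to iPSC 0.85, not called.

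Plagl1 encodes a zinc-finger factor that restrains proliferation and is known to regulate other imprinted genes. It was 985/613 in MEF and 1242/1090 at OSK day 0. It then declined through 771/327 at day 1, 328/288 at day 3 and 335/182 at day 5 to 169/126 at day 7. With cJun the values went from 839/616 through 315/324 and 157/148 to 50/44. Plagl1 fell by 2.99 (SE 0.41, adjusted p = 2.39e-05) in the OSK course and had a fold of -3.91 (SE 0.41, adjusted p = 1.97e-06) in the cJun course. At day 1 the fold of -1.21 (SE 0.41, adjusted p = 0.0775) was not called, although it would be without day 1 replicate 1 (-1.83), and at day 3 Plagl1 was lower than at day 0 with a fold of -1.92 (SE 0.41, adjusted p = 0.00205). Established cells went against this course, with 1297/1203 in iPSC and 1059/1214 in ESC, every one above all day 1 to day 7 libraries of both courses. iPSC were above OSK day 7 by 3.09 (SE 0.41, adjusted p = 1.38e-05), and their difference from ESC was 0.14 (SE 0.41, adjusted p = 0.958), with a 95% interval of -0.71 to 0.99. Against MEF the ESC difference was 0.54 (SE 0.41, adjusted p = 0.272).

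At day 7 Plagl1 separated all 3 reprogramming groups. It was lower with cJun than in OSK with a fold of -1.62 (SE 0.41, adjusted p = 0.0109), which was lost on leaving out OSK day 7 replicate 1 (-1.41) or either cJun library (-1.71 and -1.53). With the hairpin it was 795/2078, higher than in OSK by 3.13 (SE 0.41, adjusted p = 0.000192) and called in all 12 alternatives run. The lower hairpin library still stood above both OSK day 7 libraries.

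Cdkn1c encodes p57, an inhibitor of cyclin-dependent kinases that stops the cell cycle. Its level went from 612/425 in MEF to 125/118 at OSK day 0, then 71/56, 37/22, 38/25 and 24/13 on days 1, 3, 5 and 7. The cJun libraries were at 61/92, 62/63, 40/17 and 35/16. The lowest levels were those of iPSC, 6/9, and of ESC, 1/10. Cdkn1c was below MEF with a fold of -6.77 (SE 0.61, adjusted p = 5.88e-08) in ESC and had a fold of -5.93 (SE 0.61, adjusted p = 5.38e-07) in iPSC. It fell by 2.71 (SE 0.61, adjusted p = 0.00241) from day 0 to day 7. At day 0 it was lower than in MEF with a fold of -2.06 (SE 0.61, adjusted p = 0.0422), which was lost without any 1 of the 4 libraries (-2.32 to -1.80). The fold of -2.05 (SE 0.61, adjusted p = 0.0209) between days 0 and 3 was lost without either day 0 library (-2.01 and -2.09) or day 3 replicate 2 (-1.69). In the cJun course the fold of -1.62 (SE 0.61, adjusted p = 0.0662) was not called. Hairpin libraries held 61/91, above both OSK day 7 libraries, a fold of 2.01 (SE 0.61, adjusted p = 0.0348) that was lost without either hairpin library (2.30 and 1.73) or OSK day 7 replicate 2 (1.59). Osbpl5, further along the same cluster, was lower than at day 0 with a fold of -3.29 (SE 0.44, adjusted p = 2.16e-05) at OSK day 7 and below MEF with a fold of -7.96 (SE 0.44, adjusted p = 1.75e-10) in ESC. Cd81 and Nap1l4 of that cluster were called in none of these comparisons. From MEF to ESC, other genes of the cluster went in both directions, several at low scores. Phlda2 went from 1/0 to 12/23, Ascl2 from 0/0 to 7/14, Slc22a18 from 1/0 to 2/11 and Kcnq1ot1 from 154/168 to 235/225. Kcnq1 went from 3/1 to 0/0 and Tssc4 from 183/203 to 159/141.

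Igf2r encodes the receptor that carries the growth factor Igf2 to lysosomes for breakdown. It was at 3777/3777 in MEF, 1653/2194 at OSK day 0, then 1633/2038, 1772/1461, 1863/1389 and 1071/911 on days 1, 3, 5 and 7. The cJun libraries were at 1633/1704, 1366/1947, 1540/1863 and 1143/1131. ESC and iPSC, at 722/692 and 793/877, lay below all other libraries and below MEF with a fold of -2.42 (SE 0.20, adjusted p = 1.89e-08) and -2.18 (SE 0.20, adjusted p = 1.43e-07). The steps from MEF to day 0, -0.99 (SE 0.20, adjusted p = 0.00349), and from day 0 to day 7, -0.95 (SE 0.20, adjusted p = 0.00138), passed on p and missed the fold of 1. The first passed without day 0 replicate 2 (-1.19) and the second without day 0 replicate 1 (-1.15) or day 7 replicate 1 (-1.06). With the hairpin Igf2r was 3614/3777, back at the MEF level, and higher than in OSK day 7 by 1.90 (SE 0.20, adjusted p = 2.84e-05). At day 7 the OSK+cJun libraries differed from OSK by 0.20, with a 95% interval of -0.22 to 0.62. Airn, the noncoding RNA that runs against Igf2r, was at 57/34 in MEF and 2/0 in ESC, lower in ESC with a fold of -4.70 (SE 0.54, adjusted p = 1.1e-06). The exons of Igf2r share no bases with annotated exons of other genes, and overlap with the introns of other genes was not checked.

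H19 makes a noncoding RNA beside Igf2, and the pair share enhancers that are known to drive one gene from each parental copy. H19 was 11667/7721 in MEF, 3034/1904 at OSK day 0, then 724/427, 581/240, 914/724 and 909/153 on days 1, 3, 5 and 7. With cJun it went through 2260/1609, 453/184 and 245/84 to 218/58. Replicates spread widely, and the folds against day 0 of -2.11 (SE 1.06, adjusted p = 0.268) at day 1, -2.68 (SE 1.06, adjusted p = 0.0807) at day 3 and -2.68 (SE 1.06, adjusted p = 0.0635) at day 7 were not called in OSK. The last was called without day 7 replicate 1 (-3.96). In the cJun course H19 fell by 4.07 (SE 1.06, adjusted p = 0.00956), which was lost on leaving out OSK+cJun day 0 replicate 1 (-3.82) or day 7 replicate 2 (-3.12). Igf2, the fetal growth factor gene, was 8981/5488 in MEF, 5023/5023 at OSK day 0 and 283/51 at day 7, with a fold of -5.37 (SE 1.03, adjusted p = 0.000765). Over the 13 group means H19 and Igf2 had a Pearson correlation of 0.82, given as a description since the groups share libraries' scaling and 1 cluster.

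ESC held 6/133 for H19, lower than MEF with a fold of -8.28 (SE 1.06, adjusted p = 5.18e-06). iPSC held 1025/1519 and were higher than ESC by 5.35 (SE 1.06, adjusted p = 0.00375), which was lost on leaving out ESC replicate 1 (3.22) and when the fit held the compared libraries alone (adjusted p = 0.118). Without ESC replicate 2 the fold was 7.48. Igf2 stood at 604/992 and 2/90 in the same order, higher in iPSC by 5.55 (SE 1.03, adjusted p = 0.00223). Only 2 members were called between iPSC and ESC, H19 and Dlk1, both higher in iPSC, where 6.22 percent of all genes were called, 4.57 higher and 1.65 lower. Fibroblast markers moved with these values. The sum of 5 was 490 and 798 in iPSC, or 6.07 and 9.89 percent of the MEF mean, against 19 and 45 in ESC, and H19 in iPSC stood at 13.1 percent of its MEF mean and Igf2 at 11.0 percent. Dlk1 in iPSC stood lower, at 2.79 percent of its MEF mean. Between the ESC libraries the second had both more H19 and more of the markers. Between the MEF libraries the order was opposite, with H19 at 11667/7721 and the markers at 6234 and 9905. The part of these markers in the difference was not tested. Against MEF, H19 was lower in iPSC with a fold of -2.93 (SE 1.06, adjusted p = 0.029), which was lost on leaving out any 1 of the 4 libraries (-3.22 to -2.63).

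**Figure D3:**
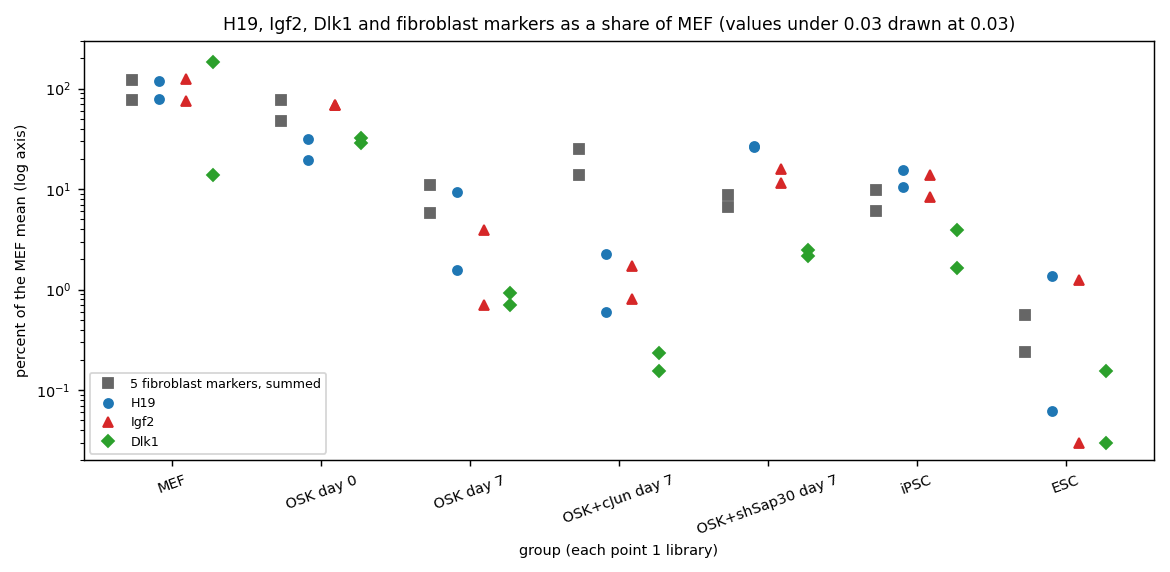
Each point is 1 library as a percentage of the MEF mean on a log axis, for the sum of 5 fibroblast markers, H19, Igf2 and Dlk1 in 7 groups. In iPSC the markers (6.07 and 9.89 percent), H19 and Igf2 lie near each other and Dlk1 lies lower, with a mean of 2.79 percent. In OSK+cJun day 7 both marker points lie above every H19 and Igf2 point.

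Markers and H19 stood otherwise to each other in the day 7 groups. At OSK+cJun day 7 the sum of 5 markers was 2010 and 1127, and H19 was 218/58 and Igf2 124/58. In the hairpin libraries the sum was 708 and 534, between the 888 and 469 of OSK day 7. With Col1a1 and Col1a2 included it was 4975 and 6078, below the 8773 and 9938 of OSK day 7. H19 was 2619/2542 with the hairpin, above both OSK day 7 libraries. That difference, 2.79 (SE 1.06, adjusted p = 0.0881), was not called, and was called without OSK day 7 replicate 1 (4.07).

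Dlk1 encodes a transmembrane ligand of precursor cells that holds back differentiation of fat cells. The MEF libraries differed 13.64 times, at 2401/176. From there Dlk1 was 367/416 at OSK day 0, then 99/124, 15/15, 9/4 and 12/9 on days 1, 3, 5 and 7, while with cJun it was 251/334, 77/103, 13/22 and 3/2. It fell by 5.10 (SE 0.80, adjusted p = 0.000107) in the OSK course and had a fold of -6.39 (SE 0.80, adjusted p = 1.55e-05) in the cJun course, and had a fold of -4.61 (SE 0.80, adjusted p = 0.000409) up to day 3 in OSK. Against MEF the day 0 difference was -0.74 (SE 0.80, adjusted p = 0.667), which turned to 1.15 without MEF replicate 1 and was called at -2.62 without MEF replicate 2. ESC libraries held 2/0, lower than MEF with a fold of -8.56 (SE 0.80, adjusted p = 1.08e-07), and the iPSC libraries 21/51, lower with a fold of -4.27 (SE 0.80, adjusted p = 0.000282). The iPSC fold was -2.39 without MEF replicate 1, -6.15 without MEF replicate 2, and not called in a fit of the compared libraries alone (adjusted p = 0.0558). iPSC were higher than ESC by 4.29 (SE 0.80, adjusted p = 0.00212), which was lost on leaving out iPSC replicate 2 (3.67) and with a pseudocount of 10 (1.99). In MEF the 2 skeletal muscle markers in the table, of 6 listed, summed to 602 in the first library and 220 in the second, the same order as Dlk1. The order was not the same in every group. At OSK day 0 the markers summed to 399 and 185 beside 367/416 for Dlk1, and at day 7 to 19 and 2 beside 12/9. The part of these markers in the level of Dlk1 was not tested.

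The noncoding genes of the Dlk1 cluster, which are read from the maternal copy, took another course in OSK. Meg3 was 1700/1858 at OSK day 0, 533/515 at day 1 and 1386/1562 at day 7, and Rian was 1678/2042, 411/558 and 1124/1655 at the same days. Both fell by day 1, Meg3 with a fold of -1.76 (SE 0.32, adjusted p = 0.0022) and Rian with a fold of -1.95 (SE 0.42, adjusted p = 0.00812), and at day 7 neither differed from day 0 past the threshold. With cJun they stayed low, at 680/693 for Meg3 and 395/550 for Rian at day 7, below OSK with a fold of -1.10 (SE 0.32, adjusted p = 0.0258) and -1.55 (SE 0.42, adjusted p = 0.0187). The hairpin libraries were lower than OSK day 7 as well, Meg3 with a fold of -1.49 (SE 0.32, adjusted p = 0.00559) and Rian with a fold of -1.34 (SE 0.42, adjusted p = 0.0423), although these comparisons share the OSK day 7 libraries. In iPSC Meg3 stood at 1375/1386, against 520/1097 in ESC, and its difference was not called. Dio3, which inactivates thyroid hormone at the far end of the cluster, was listed at 0 in both OSK day 0 libraries and stood at 135/283 at day 7.

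**Figure D4:**
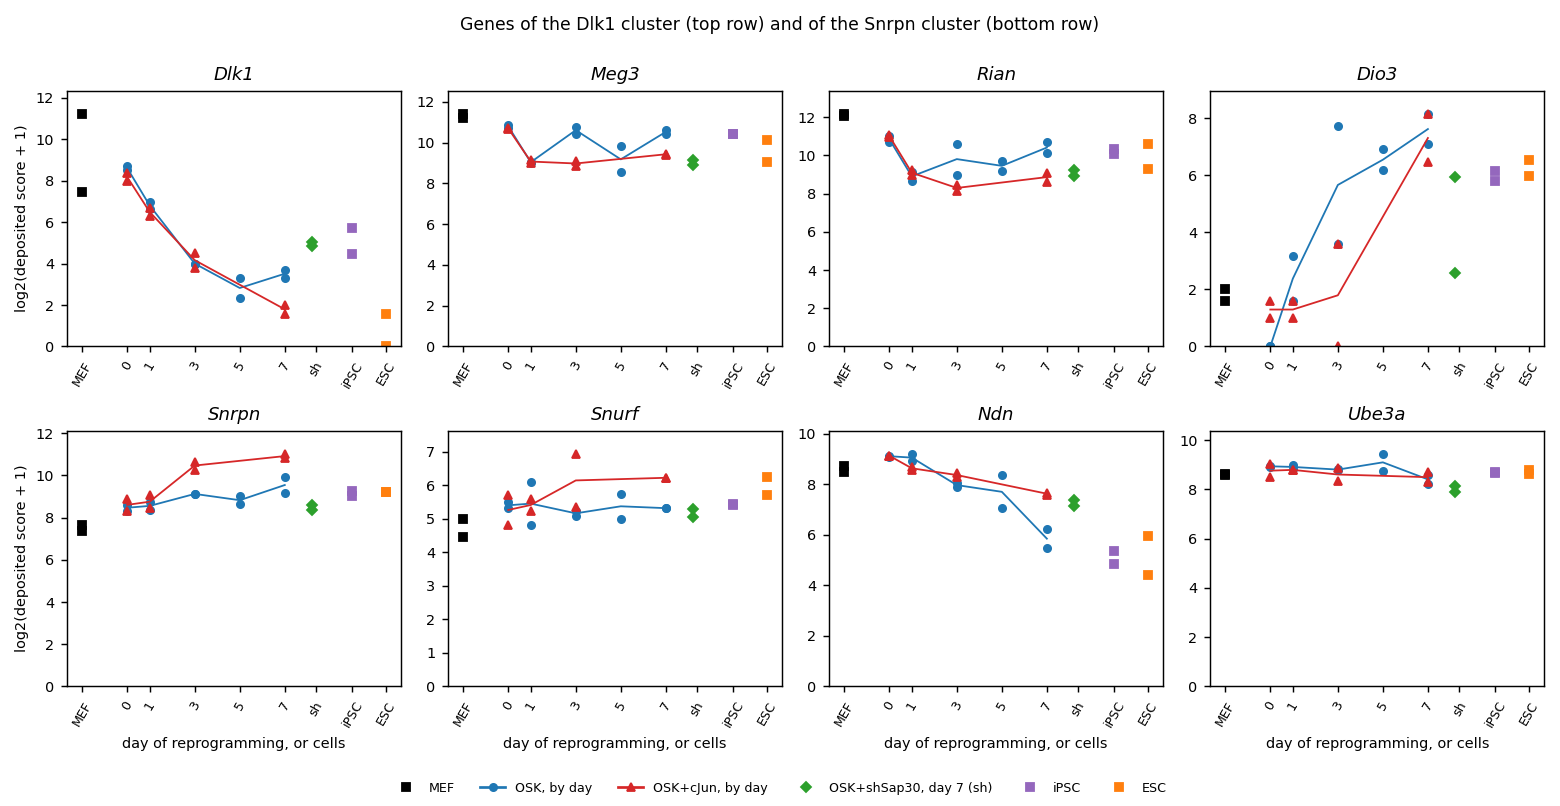
Points are log2(score + 1) of single libraries and lines join means of 2, as in the plot of members by library, for Dlk1, Meg3, Rian and Dio3 (top) and for Snrpn, Snurf, Ndn and Ube3a (bottom). Dlk1 declines while Dio3 climbs, and Snrpn and Ndn of 1 cluster move in opposite directions in both courses.

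Mest encodes a protein of the hydrolase fold that is high in embryonic mesoderm. It was 1825/1213 in MEF, 235/257 at OSK day 0, then 352/597, 82/97, 35/85 and 59/39 on days 1, 3, 5 and 7. The cJun libraries, at 110/128, 147/220, 47/40 and 30/22, lay below those of OSK on each matched day. These differences were -1.04, -1.35, -1.02 and -0.88 (SE 0.37 each) and none was called. Mest was below MEF with a fold of -2.59 (SE 0.37, adjusted p = 0.000198) at day 0, and fell by 2.33 (SE 0.37, adjusted p = 0.000112) to day 7 and had a fold of -1.45 (SE 0.37, adjusted p = 0.00815) to day 3, the last lost without day 0 replicate 2 (-1.39) or day 3 replicate 1 (-1.33). In the cJun course it fell by 2.16 (SE 0.37, adjusted p = 0.000329). Levels were higher again in iPSC, 178/160, than at OSK day 7, by 1.79 (SE 0.37, adjusted p = 0.000924), and ESC held 223/320. Hairpin libraries were at 163/107, above both OSK day 7 libraries by 1.44 (SE 0.37, adjusted p = 0.0154), which was lost on leaving out OSK day 7 replicate 2 (1.15) or hairpin replicate 1 (1.14). Copg2 overlaps 23.1 percent of the Mest exon bases on the other strand, and strand was not marked by the kit the labels name. It stood at 271/340 in MEF, 281/641 at OSK day 7 and 234/376 at OSK+cJun day 7, and these groups overlapped.

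Peg10, a gene derived from a retrotransposon and needed for the placenta, went the other way late in the course. It was 735/101 in MEF, 179/162 at OSK day 0, then 236/454, 150/306, 487/803 and 2468/957 on days 1, 3, 5 and 7. With cJun it was 143/174, 199/147, 185/150 and 890/1077. It rose by 3.17 (SE 0.85, adjusted p = 0.00886) in the OSK course, which was lost on leaving out day 7 replicate 1 (2.48), and by 2.63 (SE 0.85, adjusted p = 0.0339) in the cJun course, lost without any 1 of its 4 libraries (2.49 to 2.77). In each course, both day 7 libraries were above both day 0 libraries. The hairpin libraries, 3410/1375, overlapped those of OSK day 7, and the fold of 0.49 (SE 0.85, adjusted p = 0.76) was not called. iPSC held 468/332 and ESC 39/296. The MEF and the ESC libraries each differed over 7 times, and the ESC fold against MEF of -1.33 (SE 0.85, adjusted p = 0.201) was near 0 without ESC replicate 1 (0.12) or MEF replicate 1 (0.10) and called without ESC replicate 2 (-2.78) or MEF replicate 2 (-2.76). The 6 trophoblast markers in the table, of 7 listed, summed to at most 108 in any reprogramming library and to 387 to 512 in iPSC and ESC, where Tfap2c alone, a gene active in pluripotent cells too, was 442/375 and 347/360. In the OSK course the sum of the 6 went from 48 and 20 at day 0 to 81 and 57 at day 7. Of these markers Elf5, a transcription factor of trophoblast stem cells, was picked after the values were seen. It went from 0/0 at OSK day 0 to 21/18 at day 7. Elf5 was 1/1 at OSK+cJun day 7, 1/0 in iPSC and 1/1 in ESC, and 3/5 with the hairpin, where mean Peg10 was highest. The part of these markers in the rise of Peg10 was not tested. Sgce, which is read from the same start region in the opposite direction, was 235/273 at OSK day 0 and 209/339 at day 7, with no call.

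Snrpn encodes a component of the splicing machinery. It was lowest in MEF, 197/165, and stood at 322/388 at OSK day 0, then 330/428, 551/564, 401/512 and 581/960 on days 1, 3, 5 and 7. The cJun libraries reached the highest values of the table for this gene, from 316/478 and 346/538 at days 0 and 1 to 1244/1616 at day 3 and 1799/2080 at day 7. Snrpn rose by 2.31 (SE 0.26, adjusted p = 5.16e-06) in the cJun course and was above OSK by 1.35 (SE 0.26, adjusted p = 0.00276) at day 3 and by 1.37 (SE 0.26, adjusted p = 0.00163) at day 7. In OSK it rose by 1.08 (SE 0.26, adjusted p = 0.00427) between days 0 and 7, which was lost on leaving out day 0 replicate 1 (0.94) or day 7 replicate 2 (0.72). The difference between the courses was 1.24 (SE 0.37, adjusted p = 0.0719), not called, though called without OSK day 7 replicate 2 (1.60). ESC held 598/600 and iPSC 612/519, above MEF with folds of 1.73 (SE 0.26, adjusted p = 2.59e-05) in ESC and 1.64 (SE 0.26, adjusted p = 5.9e-05) in iPSC. At day 0 the difference from MEF of 0.97 (SE 0.26, adjusted p = 0.0266) missed the fold of 1 and passed without MEF replicate 1 (1.09). With the hairpin Snrpn was 388/327, below OSK day 7 with a fold of -1.07 (SE 0.26, adjusted p = 0.0123), which was lost on leaving out OSK day 7 replicate 2 (-0.70) or hairpin replicate 2 (-0.94).

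Reads of Snrpn can be shared with neighbours. Gm38393 covers 27.3 percent of its exon bases on the same strand and Snurf 10.0 percent, so the split between them is uncertain. Gm38393 was at 84/97 in MEF, 99/81 at OSK day 7 and 114/129 at OSK+cJun day 7, and Snurf at 21/31, 39/39 and 74/74 in the same groups. Ndn, a growth-restraining gene of the same cluster also read from the paternal copy, went from 555/545 at OSK day 0 to 74/43 at day 7, with a fold of -3.26 (SE 0.41, adjusted p = 9.68e-06), and was higher with cJun at day 7, 191/201, by 1.78 (SE 0.41, adjusted p = 0.00603).

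Added cJun was compared with OSK on 4 matched days. At day 0 none of the members was called by limma (1 at an unadjusted p below 0.05) where 0.0748 percent of all genes were (0.0312 higher and 0.0436 lower), and at day 1 none either (2 at an unadjusted p below 0.05) where 1.98 percent were (1.24 higher and 0.742 lower). At day 3 Zim1 and Snrpn were higher, 2 of 10 beside 7.54 percent of all genes in either direction. At day 7 the same 2 were higher and Plagl1 was lower, 3 of 10 beside 11.8 percent (6.76 higher and 5.03 lower). The other members at day 7 included Peg3, 673/612 with cJun against 469/269, a difference of 0.85 (SE 0.32, adjusted p = 0.0748) that was called without OSK day 7 replicate 1 (1.25). The difference was -1.72 (SE 1.06, adjusted p = 0.304) for H19 and -1.72 (SE 0.80, adjusted p = 0.162) for Dlk1. Within the cJun course 6 of 10 members were called between days 0 and 7, 4 lower and 2 higher, beside 17.7 percent of all genes (8.79 lower and 8.89 higher). The 5 fibroblast markers summed to 2010 and 1127 at OSK+cJun day 7 and to 888 and 469 at OSK day 7, and their part in these differences was not tested.

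With the Sap30 hairpin at day 7 Zim1, Plagl1, Cdkn1c, Igf2r and Mest were called higher than in OSK, 5 of 10 where 4.93 percent of all genes were, and Snrpn lower where 4.92 percent were (9.85 percent in all), with a median of 1.672 against -0.007 over all genes. Peg3, at 824/427, differed by 0.74 (SE 0.32, adjusted p = 0.126), which was called without OSK day 7 replicate 1 (1.14) or hairpin replicate 2 (1.21). Dlk1, at 28/32 against 12/9, did not overlap, and its fold of 1.44 (SE 0.80, adjusted p = 0.249) was not called. The hairpin folds share the OSK day 7 libraries with the folds of the OSK course, so the 2 are not independent. When the fit held only the 4 libraries compared, 2 members, Plagl1 and Igf2r, were called. Without OSK day 7 replicate 2, 3 were. Of the other imprinted genes 7 were higher, among them Grb10, an inhibitor of insulin and growth-factor signalling, by 1.38 (SE 0.30, adjusted p = 0.00629), and Ndn by 1.41 (SE 0.41, adjusted p = 0.0275), and 5 were lower, among them Commd1 with a fold of -1.69 (SE 0.26, adjusted p = 0.00062). The columns of the hairpin libraries are named in another style than the rest, and whether they were prepared with the OSK day 7 libraries was not given, so a batch and the hairpin cannot be told apart. Among markers of other cells, 6 of macrophages summed to 325 and 1066 with the hairpin against 222 and 235 in OSK day 7, with Adgre1 and Tyrobp at 0 in both hairpin libraries, and 5 of endothelium to 711 and 946 against 317 and 496, with Emcn at 0 in both groups. Both sums were higher in hairpin replicate 2, as were Plagl1 (795/2078), Zim1 (10/85), Cdkn1c (61/91), Igf2r (3614/3777) and Dlk1 (28/32). The other members, Mest (163/107), Peg3 (824/427), Peg10 (3410/1375), Snrpn (388/327) and H19 (2619/2542), were higher in hairpin replicate 1. The sums of 5 fibroblast markers, given above, overlapped between the groups. Those of all 7, with Col1a1 and Col1a2, did not overlap, at 4975 and 6078 with the hairpin and 8773 and 9938 in OSK day 7. These sums lie below the ceiling of 21544. The part of these markers in the differences was not tested.

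**Figure D5:**
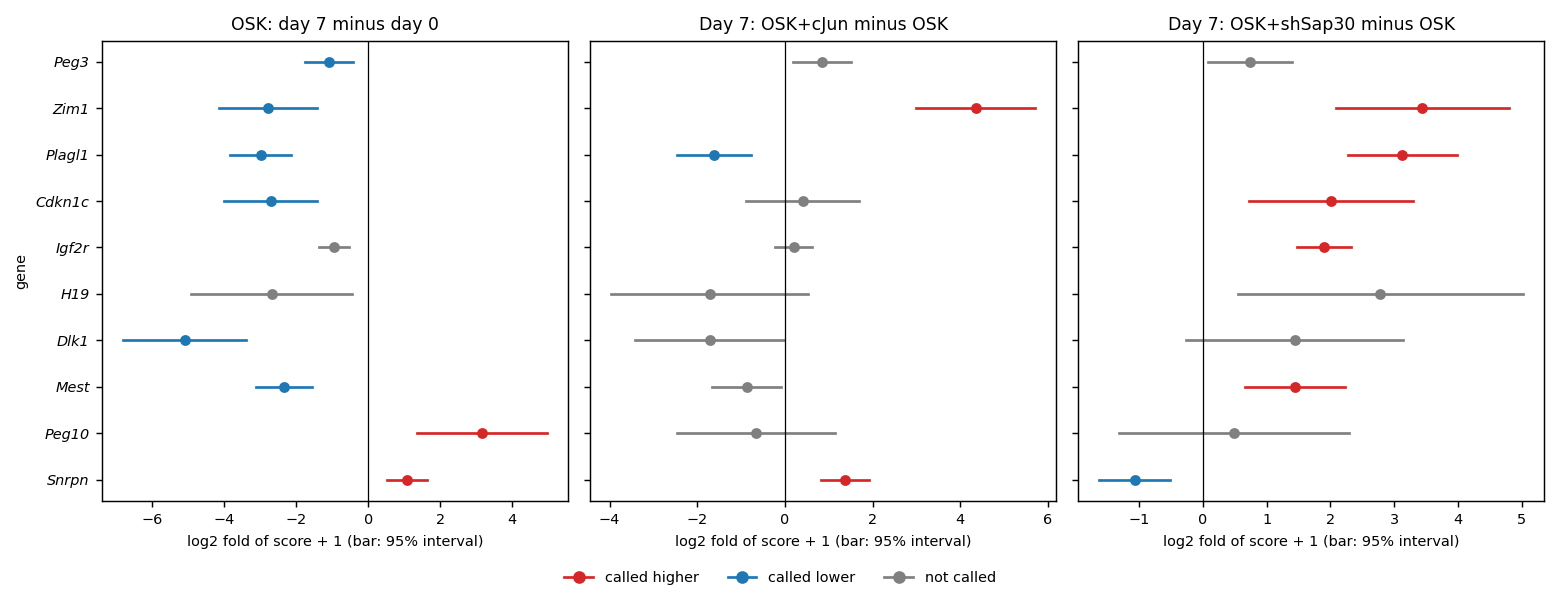
Points are log2 folds of the 10 members with 95% intervals from limma (2 libraries per group) for OSK day 7 against day 0, OSK+cJun against OSK at day 7 and OSK+shSap30 against OSK at day 7, each on its own horizontal scale, coloured where called. Snrpn lies on the positive side in the first 2 panels and on the negative side with the hairpin, while Plagl1 does the reverse. All panels share the OSK day 7 libraries, added in the first and subtracted in the others, so their signs are not independent.

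Between OSK day 7 and established iPSC, 3 of 10 members were called, all higher, where 30.3 percent of all genes were called, 14.7 higher and 15.7 lower, namely Plagl1, Mest and Zim1. H19, Dlk1 and Peg10 were at 1.74 (SE 1.06, adjusted p = 0.207), 1.57 (SE 0.80, adjusted p = 0.132) and -1.96 (SE 0.85, adjusted p = 0.0772). Peg10 had a fold of 1.86 (SE 0.85, adjusted p = 0.25) between iPSC and ESC, which was called without ESC replicate 2 (3.30).

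Proteins that keep imprints in the early embryo formed a second list of 7 genes. In ESC 6 of 7 were called above MEF, where 22.4 percent of all genes were, and in iPSC also 6, where 20.2 percent were, all but Zfp445 in each. Zfp57, whose protein binds the methylated motif shown above, was 306/244 in MEF, 204/242 at OSK day 0, 684/684 at day 7, 1130/1239 in iPSC and 1130/1564 in ESC. It rose by 1.62 (SE 0.33, adjusted p = 0.00103) in the OSK course, and at day 7 it was lower with cJun, 232/243, with a fold of -1.52 (SE 0.33, adjusted p = 0.00387). Dppa3, a protector of maternal methylation, was at most 3 in MEF and in all reprogramming libraries and stood at 122/109 in iPSC and 486/605 in ESC. Trim28, the corepressor of ZFP57, Uhrf1 and Dnmt1, which copy methylation at replication, and the histone methyltransferase gene Setdb1 were above MEF in ESC by 1.87, 3.01, 1.65 and 1.32. With the hairpin limma called none of the 7 (1 at an unadjusted p below 0.05).

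The members did not form 1 pattern. By the mean of log2(score + 1) over the 13 groups, MEF was highest for 7 members, the hairpin group for Plagl1 and Peg10 and OSK+cJun day 7 for Snrpn. ESC was lowest for Cdkn1c, Igf2r, H19, Dlk1 and Peg10, and for Peg3 ESC and OSK day 1 were lowest together at 8.35. The lowest group was OSK day 7 for Zim1, OSK+cJun day 7 for Plagl1 and Mest, and MEF for Snrpn. When the groups were ordered by level, the libraries of neighbouring groups overlapped in 6 of 12 steps for Dlk1 and in 10 of 12 for Peg10, the extremes among members, so most neighbours in the order cannot be told apart. The genes most like each member over the 13 group means, by Pearson correlation among 11754 candidates and with no test, were Ptgfr for Peg3 (0.906), Fam220a for Zim1 (0.929), Eng for Plagl1 (0.949), Serpinh1 for Cdkn1c (0.967) and Gapvd1 for Igf2r (0.935). For H19 this was Tgfb2 (0.932), for Dlk1 Itga9 (0.972), for Mest Golga7 (0.93), for Peg10 Pcdh8 (0.909) and for Snrpn Tnip1 (0.911).

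In the GRCm38 annotation Peg3 (ENSMUSG00000002265) lies at chr7:6703892-6730431, Zim1 (ENSMUSG00000002266) at chr7:6671269-6696450, Snrpn (ENSMUSG00000102252) at chr7:59982495-60140219, H19 (ENSMUSG00000000031) at chr7:142575529-142578143 and Cdkn1c (ENSMUSG00000037664) at chr7:143458339-143461050, all on the minus strand. Igf2r (ENSMUSG00000023830) lies at chr17:12682406-12769664 on the minus strand. Mest (ENSMUSG00000051855) at chr6:30723547-30748465, Peg10 (ENSMUSG00000092035) at chr6:4747306-4760517, Plagl1 (ENSMUSG00000019817) at chr10:13060504-13131694 and Dlk1 (ENSMUSG00000040856) at chr12:109452823-109463336 are on the plus strand. H19 is annotated as a long noncoding RNA and the other 9 as protein coding. An antisense transcript, Gm44732, overlaps 30.6 percent of the Cdkn1c exon bases and has no row in the table, so its reads and those of Cdkn1c cannot be told apart without strand.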

How the data were processed

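Per the labels' protocols, TRIzol RNA went into TruSeq RNA libraries that were read on a NextSeq 500. The tools bcl2fastq, Bowtie2 and RSEM and the build mm10 are named without versions, per the submitters' processing notes. The deposited values are a normalised score made by the authors: whole numbers with library totals from 4619641 to 4624161 and a shared highest value of 21544, so depth is unknown and no count test was used. The normalising step is not given in the sources used here. Of 18198 genes 18039 were matched to a symbol, and 0 sample columns were unused.

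Scores plus 1 were taken to log2, genes with at least 10 in at least 2 libraries were kept (16038), and limma 3.58.1 (R 4.3.3, statmod 1.5.0) took in all 26 libraries, a mean for each of 13 groups, and trended, robust variances. Benjamini-Hochberg adjustment ran over all genes tested, and every adjusted p is limma's. The fit was tested on simulated data. There were 15 comparisons. Members always stood in the text, with genes of their clusters, the list of imprint keepers, and for each member the 2 genes of most similar pattern, of which the first is printed. The members and lists were chosen with earlier results of these data known. Promoters came from RefSeq (GRCm38.p6) and gene positions from GENCODE on GRCm38. Alternatives were other added constants, filters, scaling, sets of libraries, a replicate term and leaving out each library. Python 3.11.15 and matplotlib 3.10.9 were used for values and figures. Clauses on what a gene does are general knowledge.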

Additional observations from a re-analysis of the deposited data

Results flagged for a closer look

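The change of Zim1 from day 0 to day 7 differed between the 2 courses by a test of the difference itself. It was 1.24 (SE 0.64, adjusted p = 0.19) with added cJun and -2.78 (SE 0.64, adjusted p = 0.00289) without, so the course with cJun exceeded the other on the log2 scale by 4.03 (SE 0.91, adjusted p = 0.0189), by limma with 2 libraries in each of the 4 groups. Both cJun day 7 libraries were above both cJun day 0 libraries, and both OSK day 7 libraries below both OSK day 0 libraries. Leaving out any 1 of 5 of these 8 libraries ended the call. With 10 added before the log in place of 1, the difference was 2.25 and was still called.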

How the results depend on the processing

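Of 56 called member folds, 35 held in every alternative run and 21 were lost in 1 or more, with no sign reversed among them. Alternatives that kept both libraries of each compared group gave 438 of 448 fits with the same call, and leaving out 1 library gave 177 of 228. Between iPSC and ESC 2 members were called, and 1 with a pseudocount of 10, 1 in a fit of the compared libraries alone, and 1 to 4 with a library left out. Between OSK+cJun and OSK at day 1 none was called, and 1, Mest, with a pseudocount of 10 and also 1 without both day 5 libraries. In fits of the compared libraries alone, 3 in place of 1 were called between OSK days 0 and 1, and 2 in place of 6 with the hairpin. Leaving out a library gave 2 to 4 calls between MEF and OSK day 0, 0 to 1 between OSK days 0 and 1, 2 to 3 between days 0 and 3, 3 to 8 with the hairpin and 0 to 2 for the difference between courses. A lone library left in a group is assumed to vary as the other groups do. Among the folds given in the text that were not called, those whose sign changed on leaving out a library were Peg10 in ESC against MEF (-2.78 to 0.12), Dlk1 at OSK day 0 against MEF (-2.62 to 1.15) and Peg10 with the hairpin (-0.19 to 1.18). With a pseudocount of 10, H19 was called at OSK days 3 and 7 (-2.65 and -2.64) and with the hairpin (2.74), Cdkn1c was called in the cJun course (-1.31), and Zim1 was not called between OSK day 7 and iPSC (0.85). With a pseudocount of 0.1, Cdkn1c was not called at OSK day 0 (-2.07) or with the hairpin (2.07). The causes were not tested.

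Counts over all genes moved more. In fits of the compared libraries alone they went from 1120 to 436 between MEF and OSK day 0, from 1890 to 1195 with cJun at day 7, from 318 to 205 at day 1, from 12 to 0 at day 0, from 1579 to 425 with the hairpin and from 613 to 368 for the difference between courses. The 12 at day 0 became 23 with a pseudocount of 10 and 6 with a filter at 50. With a library left out, the lowest counts in the order of days 0, 1, 3 and 7 with cJun were 1, 52, 717 and 1046, and they were 629 between MEF and OSK day 0, 396 between OSK days 0 and 1, 512 with the hairpin, 536 between iPSC and ESC and 208 for the difference between courses.

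Groups share replicate numbers, but nothing in the labels pairs them. Over 78 pairs of groups, the differences between replicates 1 and 2 correlated at a median of -0.001 (-0.088 to 0.331), with 28 pairs above 0.1. With a replicate block 2 members in place of 1 were called for the difference between courses, Snrpn being added (1.24, adjusted p = 0.0372), and no other member count moved by over 1.5 times. Depth is unknown, so the precision of low scores such as those of Zim1, and of Dlk1 in ESC, cannot be given.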
